A study of Mus musculus with 8 samples.

Results

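The genes of oxidative phosphorylation were followed across 8 RNA-seq libraries of mouse PyMT mammary tumour cells. Members were chosen by gene name: the mitochondrially encoded subunit genes (mt-Nd, mt-Co, mt-Cytb and mt-Atp), the numbered Nduf a, b, c, s and v genes, Sdha to Sdhd, the Uqcr genes, Cox4 to Cox8 and the Atp5 genes. This rule found 82 of the 12964 genes in the table, 75 in the nuclear genome and 7 in mitochondrial DNA. Among the nuclear genes 35 belonged to complex I, 4 to complex II, 8 to complex III, 11 to complex IV and 15 to complex V. Ndufa4 was counted with complex IV, where its protein resides despite its name. Atp5s and Cox7a2l, which act on complex V and on the joining of complexes, were kept apart from the subunits. The mitochondrial members were mt-Nd1, mt-Nd2, mt-Nd4, mt-Nd5 and mt-Nd6 of complex I, mt-Cytb of complex III and mt-Co1 of complex IV. No mt-Atp gene of complex V and no other mt-Nd or mt-Co gene had a row. Sums and read shares of mitochondrial members therefore cover these 7 genes alone, a part of the subunit genes in mitochondrial DNA.

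PyMT tumours are driven by the polyoma virus middle T oncogene, and the labels describe the material as a PyMT cell line of wild-type (WT) genotype from primary mammary tumours. All cells were grown in medium with low serum, insulin and EGF. They were sorted by flow cytometry for the surface protein CD90 into CD90pos and CD90neg populations. Each population was either an untreated control or was treated for 24 h with the cytokine interferon gamma (IFNg, 10 IU per ml). Each of the 4 groups held 2 libraries, lettered A and B. The labels do not state whether A and B are different cultures or different animals, and the p-values therefore reflect the spread of these libraries alone, possibly a technical one.

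Oxidative phosphorylation takes place in the inner mitochondrial membrane. Complexes I and II pass electrons to ubiquinone, complex III passes them on to cytochrome c, and complex IV gives them to oxygen. Complexes I, III and IV pump protons, and complex V, the ATP synthase, uses the returning protons to make ATP. All complexes except complex II combine subunits encoded in the nucleus with subunits encoded in mitochondrial DNA.

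The 5 reference stretches that the results refer to are shown here, each 5′ to 3′. The first pair is the Mir147 microRNA hairpin (RefSeq, GRCm38.p6, chr2:122640803-122640881, plus strand) and a stretch of the Ndufa4 3′ UTR (GENCODE vM21, GRCm38, chr6:11900465-11900494, minus strand). They are shown because the gene that holds the hairpin, AA467197, rose with IFNg while Ndufa4 fell. Capitals mark the longest run of the hairpin beyond its 5p arm that is complementary to the Ndufa4 3′ UTR, which was 8 bases.
Mir147 hairpin: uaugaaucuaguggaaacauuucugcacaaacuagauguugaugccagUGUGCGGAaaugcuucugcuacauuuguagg
Ndufa4 3′ UTR: ttcagaagccaTCCGCACAattttccactt
The other 3 stretches lie before the transcription starts of Sdhd (RefSeq, GRCm38.p6, chr9:50603850-50603909, minus strand), Uqcrh (chr4:116075072-116075268, minus strand) and Sdha (chr13:74350281-74350308, minus strand), cut to bases outside annotated exons. They are shown because Sdhd and Uqcrh fell with IFNg and Sdha was not called. Capitals mark the ETS motif CCGGAAG (read here on the opposite strand, as in the promoters bound by the respiratory gene regulator GABP) and the motif of nuclear respiratory factor NRF1 (GCGCA and GCGC with any 1 base between).
Sdhd: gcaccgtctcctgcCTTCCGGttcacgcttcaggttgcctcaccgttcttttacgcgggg
Uqcrh: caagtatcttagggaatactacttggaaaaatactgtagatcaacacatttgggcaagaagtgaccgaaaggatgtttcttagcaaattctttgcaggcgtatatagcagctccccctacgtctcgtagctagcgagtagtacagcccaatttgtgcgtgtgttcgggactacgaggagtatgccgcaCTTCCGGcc
Sdha: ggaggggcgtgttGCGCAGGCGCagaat

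The libraries held between 31243646 and 40899909 reads, recovered from the deposited normalized values. The share of reads in nuclear members ranged from 0.763% to 1.23% and that in mitochondrial members from 0.628% to 2.23%. All 9 listed epithelial markers were in the table. They summed to 225935 and 711408 normalized reads in CD90pos control libraries and to between 501978 and 891500 in CD90pos IFNg libraries. In CD90neg cells the sums were 289197 and 763499 in control and 381360 and 899008 in IFNg libraries. The 2 libraries of every group thus differed widely, and the lowest sum was in a CD90pos control library. Of the markers of other cells, 5 of 14 leukocyte, 10 of 12 fibroblast, 4 of 11 endothelium and pericyte, 1 of 6 muscle and 0 of 5 brown adipocyte genes were in the table. The leukocyte genes summed to between 192 and 477 normalized reads, and Ptprc, which defines leukocytes, had no row. Fibroblast markers include Thy1, the gene of CD90. They summed to 31037 and 31879 in CD90pos control libraries and to 20637 and 29344 in CD90pos IFNg libraries. In CD90neg cells they summed to 10689 and 36005 in control and to 10216 and 25625 in IFNg libraries. The highest of these sums was in a CD90neg control library. Endothelium and pericyte markers summed to 6431 and 16128 in CD90pos control libraries, to between 5983 and 9392 in CD90pos IFNg libraries and to between 5358 and 7994 in CD90neg libraries. Acta1, the muscle marker, was at 1304 and 17783 in CD90pos control libraries, between 657 and 6395 in CD90pos IFNg libraries and between 292 and 6385 in CD90neg libraries, so its highest value was also in a CD90pos control library. None of these marker genes was called in the IFNg effect in CD90pos cells with limma, and their part in the results below was not tested. In bulk samples, fewer cells of a type and less RNA per cell cannot be told apart.

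Levels of the members differed widely. Per kilobase of transcript and averaged over the 8 libraries, the highest member was mt-Co1 at 96991 normalized reads per kb, followed by mt-Cytb at 86867. The highest nuclear members were Atp5b, the catalytic beta subunit of the ATP synthase, at 24986, Cox4i1 at 16974 and the c-ring gene Atp5g3 at 13525 normalized reads per kb. The lowest were Atp5s at 148, Ndufb4 at 206 and Atp5l at 314. In complex I the highest was Ndufa7 at 5851, and in complexes II, III and IV the lowest were Sdhc at 955, Uqcrq at 2663 and Cox5b at 2919 normalized reads per kb. Atp5l shares 84.8% of its 50-base stretches with other annotated genes, so its reads may have been split or dropped in the counting, and its level is uncertain. Ndufb4 shares 341 such stretches with the processed pseudogene Ndufb4c, so its level is uncertain too.

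With IFNg, nuclear OXPHOS genes were lower in CD90pos cells. Across the 75 nuclear members the median log2 fold change was -0.76, against 0.01 over all genes tested, and 70 of 75 lay below 0. All fold changes are on the log2(normalized reads + 1) scale. Of all 82 members 24 were called lower and 0 higher (limma, Benjamini-Hochberg adjusted p under 0.05 over 12962 genes), where 2.11% of all genes were called lower and 2.11% higher. With the letter as a block 52 were called lower, all 24 among them, where 13.6% of all genes were. By complex these were 26 of 35 in I, 1 of 4 in II, 7 of 8 in III, 7 of 11 in IV and 10 of 15 in V, and the factor Cox7a2l. DESeq2 called 48 lower (8.19% of all genes), edgeR 20 (1.55%) and edgeR with the block 50 (13.3%). The median was -0.74 between the A libraries and -0.80 between the B libraries. In 60 nuclear members both IFNg libraries lay below both control libraries, as they did in 23.8% of all genes.

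The CD90pos control libraries had the highest medians of the nuclear members. Relative to each gene's mean over the 8 libraries, the nuclear members had medians of 0.53 (A) and 0.45 (B) on the log2 scale in the CD90pos control libraries. The other 6 libraries had medians between -0.33 and 0.01. Both CD90pos control libraries were the 2 highest of the 8 in 55 of 75 nuclear members. CD90pos control A was the lowest of the 8 in 9 nuclear members, and CD90pos control B in 1. The medians were -0.18 and -0.33 in CD90pos IFNg libraries. They were 0.01 and -0.09 in CD90neg control libraries and -0.11 and -0.25 in CD90neg IFNg libraries.

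**Figure D1:**
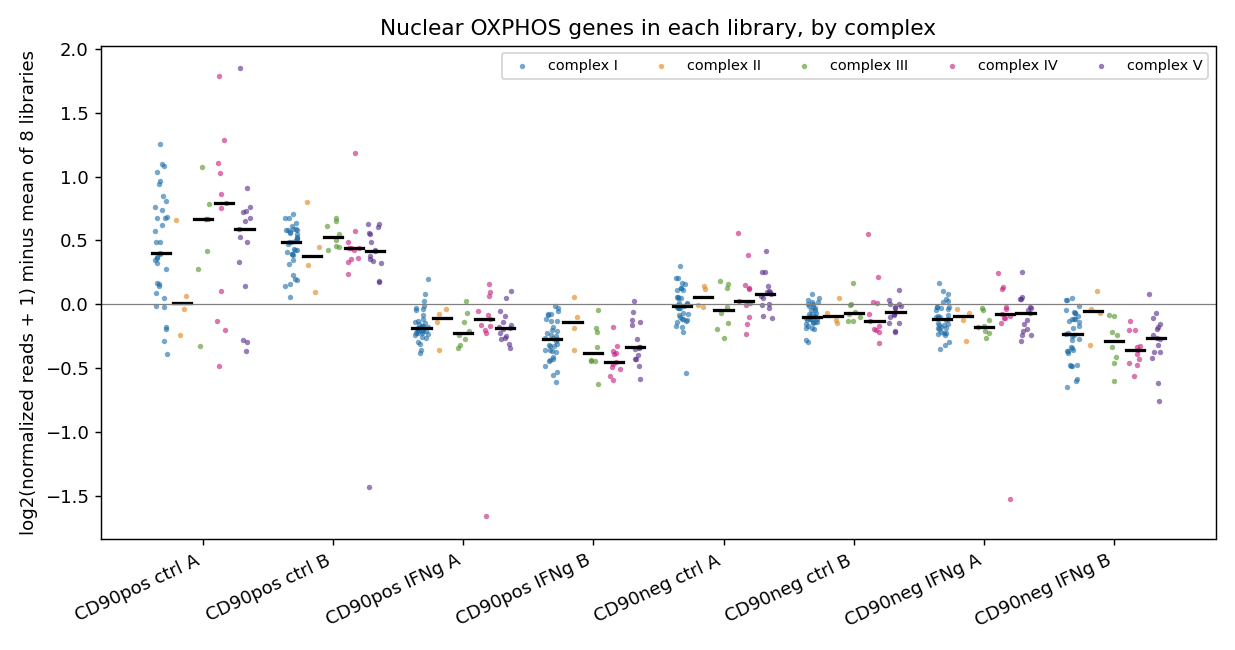
The 73 nuclear subunit genes in each library, by complex (colours). The y axis gives log2(normalized reads + 1) minus the gene's mean over the 8 libraries, each point is a gene and black bars are medians of a complex. The median of all nuclear members was higher in both CD90pos control (ctrl) libraries than in the other 6. In complex II the median difference of CD90pos from CD90neg control was -0.04 between A and 0.48 between B libraries.

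In complex I, 12 of 35 nuclear genes were called lower (median log2 fold change -0.70). Ndufv2, an iron-sulfur core subunit next to the site of NADH oxidation (chromosome 17, 66078795 to 66101559, GRCm38), was at 3966 and 3788 normalized reads in the CD90pos control libraries A and B and at 1817 and 1892 in the IFNg libraries. In CD90neg cells it was at 2095 and 2255 without and 2039 and 2026 with IFNg. The CD90pos control libraries thus stood above the other 6, and the groups of CD90pos cells did not overlap. Its log2 fold change in CD90pos cells was -1.06 (SE 0.12, limma adjusted p = 0.0200). Of the 7 nuclear core subunits, which carry the electron path, Ndufv2 and Ndufs8 were called and the median was -0.22. The letters differed, with a core median of -0.01 between the A and -0.47 between the B libraries. The 28 accessory subunits had 10 calls and a median of -0.78, with -0.73 between A and -0.81 between B libraries. Accessory subunits called were Ndufc2 (-1.13), Ndufb6 (-1.10), Ndufb3 (-1.08), Ndufb8 (-0.94), Ndufs6 (-0.94), Ndufb5 (-0.92), Ndufb9 (-0.87), Ndufa11 (-0.78), Ndufb7 (-0.67) and Ndufa8 (-0.64). Ndufb4 had the largest difference in complex I, -1.30 (SE 0.32), and was not called (limma adjusted p = 0.0755). Core subunits Ndufv1 (0.05), Ndufs7 (-0.10) and Ndufs1 (-0.22) and the accessory subunit Ndufa10 (0.04) were not called.

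In complex II, which has no mitochondrially encoded subunit, 1 of 4 genes was called. Sdhd, a membrane anchor of the complex (chromosome 9, 50596357 to 50603812), had the smallest adjusted p of all members. It was at 6940 and 7652 normalized reads in CD90pos control libraries and 3422 and 3425 in CD90pos IFNg libraries. In CD90neg cells it was at 4382 and 4043 without and 3601 and 3521 with IFNg. The IFNg libraries of both populations lay below their controls, and the CD90pos control libraries were the highest. The log2 fold change in CD90pos cells was -1.09 (SE 0.12, limma adjusted p = 0.0197). The flavoprotein Sdha (0.06), the iron-sulfur subunit Sdhb (-0.27) and the other anchor Sdhc (-0.35) were not called. Sdha was at 6027 and 7610 normalized reads in control and 6730 and 7378 in IFNg libraries of CD90pos cells, which overlap.

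In complex III, 3 of 8 genes were called and the median was -0.78. Uqcrh, the acidic hinge protein at the cytochrome c1 site (chromosome 4, 116066965 to 116075071), was at 10602 and 8025 normalized reads in CD90pos control and 3956 and 3252 in CD90pos IFNg libraries. It was at 5601 and 4776 in CD90neg control and 4179 and 3318 in CD90neg IFNg libraries. In each population both IFNg libraries lay below both controls. Uqcrh fell by 1.36 on the log2 scale in CD90pos cells (SE 0.21, limma adjusted p = 0.0344) and had -0.47 in CD90neg cells (SE 0.21, adjusted p = 0.970). Uqcrb (-0.94) and the core protein gene Uqcrc2 (-0.75) were also called. Its partner core protein gene Uqcrc1 had -0.18 and overlapping groups, with 6164 and 10946 normalized reads in control and 7027 and 7499 in IFNg libraries of CD90pos cells.

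In complex IV, Ndufa4 and Cox7a2 of 11 nuclear genes were called, while the median, -0.94, was the lowest of the 5 complexes. Cox7a2 was at 9247 and 7555 normalized reads in CD90pos control and 4515 and 3897 in CD90pos IFNg libraries (log2 fold change -0.99, SE 0.17, limma adjusted p = 0.0389). The subunit genes Cox7b (-1.18), Cox7c (-1.13), Cox6c (-1.09), Cox6b1 (-0.94) and Cox4i1 (-0.81) were not called (limma adjusted p between 0.0651 and 0.127). Cox4i1, the most abundant nuclear subunit gene of the complex, was at 21094 and 15742 normalized reads in CD90pos control and 11839 and 9154 in CD90pos IFNg libraries, so its groups did not overlap. Cox5a (-0.29), Cox6a1 (-0.27), Cox8a (-0.20) and Cox5b (-0.14) had smaller differences and were not called either. For the tissue-specific isoforms, only the widely expressed member of each paralog set (Cox4i1, Cox6a1, Cox6b1 and Cox7a2) was in the table. Cox4i2, Cox6a2, Cox6b2, Cox7a1 and Ndufa4l2 were not analysed here.

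In complex V, 6 of 15 genes were called and the median was -0.83. Atp5f1, the b subunit of the peripheral stalk (chromosome 3, 105942698 to 105960099), was at 12064 and 11303 normalized reads in CD90pos control and 5761 and 6050 in CD90pos IFNg libraries. In CD90neg cells it was at 6874 and 6942 without and 6202 and 5869 with IFNg. Again the CD90pos control libraries stood above all others, and the fold change in CD90pos cells was -0.98 on the log2 scale (SE 0.11, limma adjusted p = 0.0225). Atp5j2 (-0.99), the gamma subunit of the rotor Atp5c1 (-0.90), the stalk subunits Atp5o (-0.86) and Atp5h (-0.83) and the c-ring gene Atp5g3 (-0.85) were also called. Atp5e, the epsilon subunit, had the largest difference in complex V, -1.09, and was not called (SE 0.28, limma adjusted p = 0.0855). The paralogous c-ring genes Atp5g1 (-0.51) and Atp5g2 (-0.31) were not. Of the 5 genes of the catalytic F1 head and its central stalk, 1 was called, and their median was -0.14. The letters disagreed here, with a median of 0.21 between the A and -0.48 between the B libraries. Atp5b, the catalytic subunit, was at 38665 and 63473 normalized reads in CD90pos control and 44600 and 45459 in CD90pos IFNg libraries, so the IFNg libraries lay between the controls. Atp5a1 had -0.04 and Atp5d 0.01. Outside F1, 5 of 10 genes were called with a median of -0.84.

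The call of each of these genes rests on few libraries. For the reduced fits that follow, the shares of all genes called are not given here, so the counts are not set against the whole table. Without 1 library in turn, the number of members called fell from 24 to 3 without CD90pos control B, to 2 without either CD90neg control library, and to 0 without CD90pos control A or any 1 of the 4 IFNg libraries. In the fit with the letter as a block, leaving out 1 library gave between 21 (without CD90pos IFNg A) and 61 (without CD90pos control A), with 28 without CD90pos IFNg B.

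Nearly all nuclear members have short transcripts, and length moved with the IFNg effect over the whole table. The median principal transcript was 809 nt for nuclear members and 2956 nt for all genes, and 73 of 75 nuclear members lay below the latter. Over 12947 genes, the log2 fold change with IFNg in CD90pos cells correlated with transcript length (Spearman rho 0.30, across genes of the same libraries, which are not independent) and about as closely with GC content (rho 0.30). In CD90neg cells the rho with length over all genes was 0.02. Among the 75 nuclear members alone, the rho with length was 0.45 in CD90pos and 0.40 in CD90neg cells. Relative to their means over the 8 libraries, short genes were higher in both CD90pos control libraries (rho with length -0.16 and -0.27) and lower in the other 6 (rho between 0.02 and 0.24).

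Among the 2593 genes of the shortest quintile, from 57 to 1636 nt, the median log2 fold change was -0.37 and 6.13% were called lower. The 63 nuclear members in that quintile had a median of -0.80, 52 of them lay below the median of these genes, and 22 were called. In the next quintile, up to 2524 nt, 8 nuclear members had a median of -0.16 against -0.04 for all genes there. The called members that were longest were Uqcrc2 with 1896 nt and Ndufv2 with 1697 nt. The core subunits of complex I had a median of -0.22 and the F1 genes of complex V -0.14. They include long transcripts such as Ndufs1 with 2661 nt, Atp5a1 with 2471 nt and Atp5b with 1916 nt. Short genes with differences near 0 were also present, such as Ndufs7 with 758 nt (-0.10) and Cox8a with 550 nt (-0.20).

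**Figure D2:**
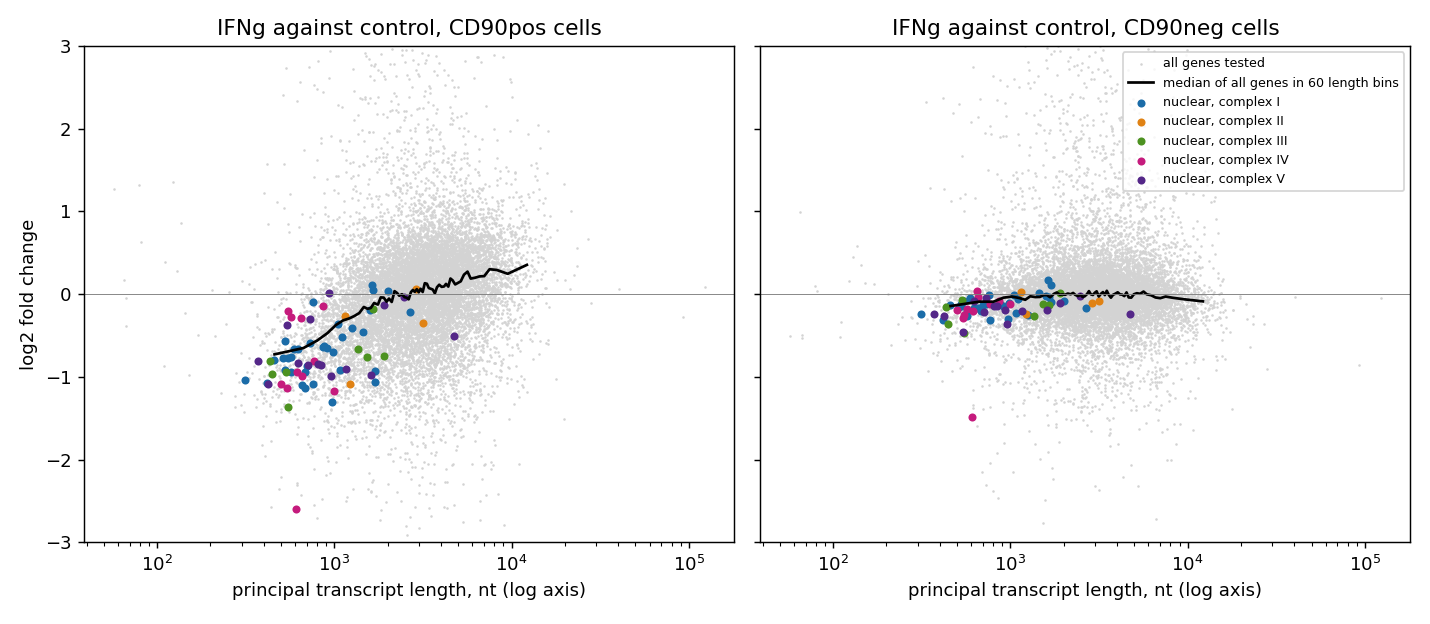
Log2 fold change with IFNg against principal transcript length (log axis) in CD90pos (left) and CD90neg cells (right); grey points are all genes tested, coloured points the 73 nuclear subunit genes by complex, and the black line joins medians of all genes in bins of equal gene number. In CD90pos cells the line rises from below 0 at short lengths and most coloured points lie below it; genes beyond the y axis limits are not drawn.

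After a length trend was removed from each library, the median of the nuclear members was -0.22, against 0.01 for all genes, and 58 of 75 lay below 0. By complex the medians were then -0.15 for I, -0.18 for II, -0.32 for III, -0.28 for IV and -0.27 for V. Within complex I the core subunits then had a median of 0.03 and the accessory subunits -0.15. Ndufv2 (-0.91, adjusted p = 0.0350), Sdhd (-0.78, adjusted p = 0.0362) and Atp5f1 (-0.81, adjusted p = 0.0398) were still called by limma, where 0.556% of all genes were called lower, and the other 21 were not. With the merged length of all exons of a gene in place of the principal transcript, Ndufv2 and Atp5f1 were called and Sdhd was not. With the letter block and the length trend removed, 20 members were called lower, where 10.9% of all genes were. The 20 were Ndufb3, Ndufb4, Ndufb5, Ndufb6, Ndufc2, Ndufs4 and Ndufv2 of complex I, Sdhd, Uqcrc2, Uqcrfs1, Uqcrh and Uqcrq, the complex IV genes Cox7a2, Cox7b, Cox7c and Ndufa4, and Atp5c1, Atp5f1, Atp5g1 and Atp5j2. With a GC trend removed as well, 24 nuclear members were called lower in the blocked fit, where 6.47% of all genes were. The length of Atp5g1, 4715 nt, comes from an isoform with a long UTR, so its corrected value is uncertain. The part of length in the decrease was not tested beyond this correction.

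**Figure D3:**
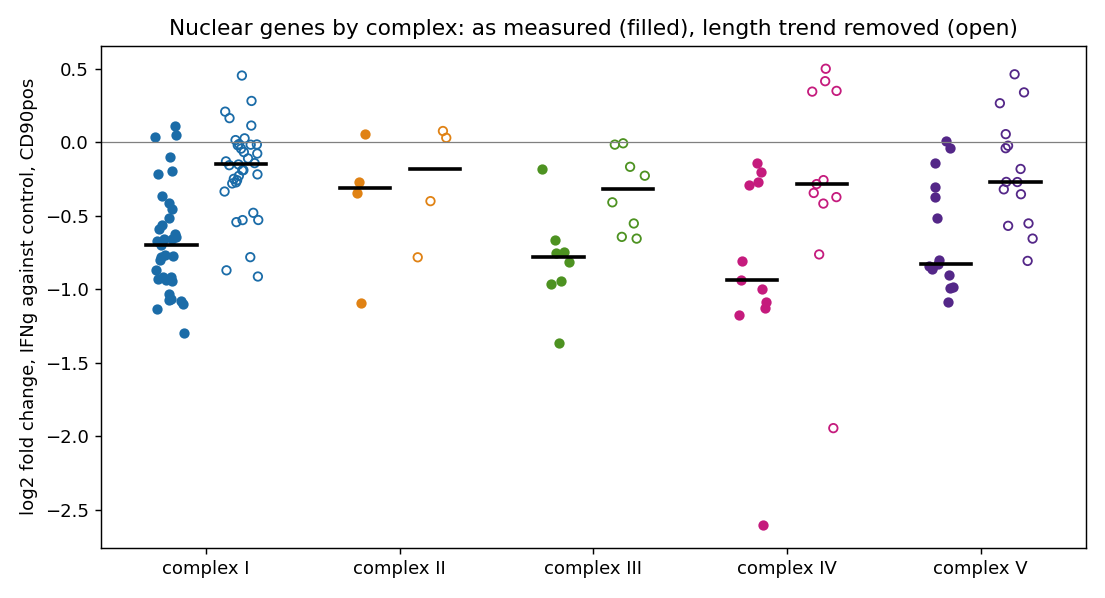
Log2 fold change with IFNg in CD90pos cells for the 73 nuclear subunit genes by complex, as measured (filled points) and after removal of the length trend (open points); black bars are medians. The medians move from between -0.94 and -0.31 to between -0.32 and -0.15, and Ndufa4 is the lowest point of complex IV in both.

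Ndufa4 had the largest decrease with IFNg of all members. It encodes a subunit at the edge of complex IV (chromosome 6, 11900292 to 11907497, minus strand, 610 nt transcript). In CD90pos cells it was at 14039 and 9231 normalized reads in control libraries A and B and at 1281 and 2741 with IFNg, or 11635 ± 3400 against 2011 ± 1033 (SD, n = 2). In CD90neg cells it was at 5968 and 5952 in control and 1408 and 3207 in IFNg libraries. In both populations both IFNg libraries lay below both controls, and the A libraries were the lower with IFNg. The log2 fold change was -2.60 in CD90pos cells (SE 0.51, limma adjusted p = 0.0495), with -3.45 between A and -1.75 between B libraries. It was -1.49 in CD90neg cells (SE 0.51, limma adjusted p = 0.629, and 0.143 with the letter block), with -2.08 and -0.89. The difference between the populations was -1.11 (SE 0.72, limma interaction adjusted p = 0.950). In CD90pos cells the call held with the letter block (adjusted p = 0.00726), also with the length trend removed in that fit (-1.94, adjusted p = 0.0219). It was lost with the length trend removed without the block (adjusted p = 0.134), in edgeR (adjusted p = 0.0640) and whenever 1 library was left out of the fit without the block (adjusted p between 0.0955 and 0.232). The next largest decreases among members were those of Uqcrh and Ndufb4.

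AA467197, a paralog of Ndufa4 (RefSeq synonym Nmes1, the mouse counterpart of human C15orf48), moved the other way. In human cells its protein is known to take the place of NDUFA4 in complex IV, and the same transcript carries a microRNA. AA467197 was at 749 and 651 normalized reads in CD90pos control and 23886 and 15109 in CD90pos IFNg libraries. In CD90neg cells it was at 341 and 407 in control and 21866 and 11863 in IFNg libraries. Every IFNg library was far above every control library. The log2 fold change was 4.76 in CD90pos (SE 0.35, limma adjusted p = 0.0123) and 5.43 in CD90neg cells (SE 0.35, limma adjusted p = 0.0109). Without the block, the call in CD90pos cells was lost without CD90pos control A, CD90pos IFNg A or CD90pos IFNg B, and that in CD90neg cells without CD90neg control A, CD90neg control B or CD90neg IFNg A (limma adjusted p up to 0.140 and 0.0708). With the block both calls held without any 1 library.

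**Figure D4:**
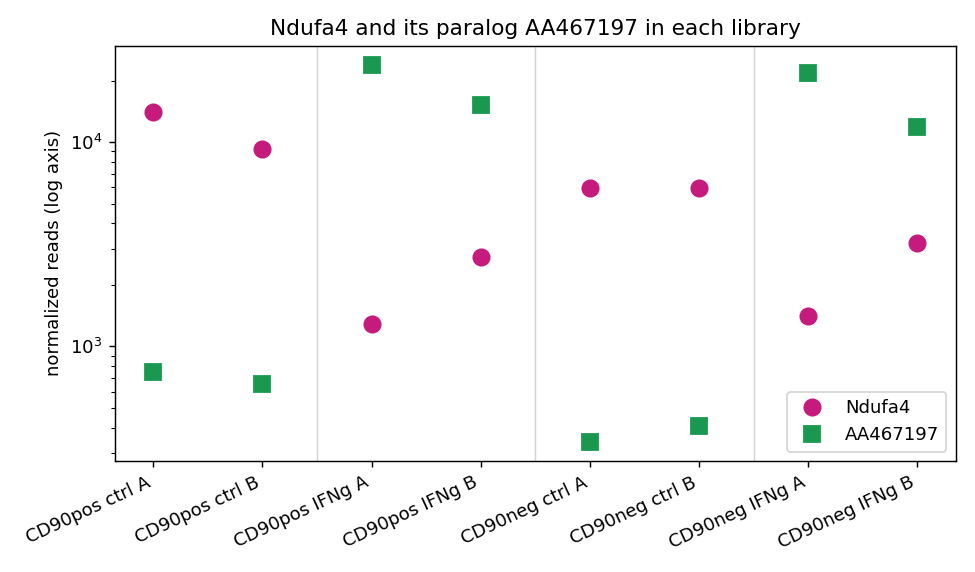
Normalized reads (log axis) of Ndufa4 (circles) and AA467197 (squares) in each of the 8 libraries, with vertical lines between the groups. Ndufa4 is above AA467197 in all 4 control libraries and below it in all 4 IFNg libraries.

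The Mir147 hairpin shown above lies inside exon 5 of the 5 exons of AA467197 (chromosome 2, 122636986 to 122641191, plus strand). The microRNA itself was not measured. The 7 letters CCGCACA, which pair with the hairpin's capital run, occurred in the 3′ UTR of 288 of 12170 genes (2.37%). Of 75 members that have one, 1 held them, Ndufa4. The letters were taken from the match with Ndufa4 itself, so its place among the 288 was fixed in advance. With IFNg the median log2 fold change of these 288 genes was 0.16 in CD90pos cells, against 0.02 for all genes with a 3′ UTR, and -0.01 in CD90neg cells, against -0.02. Of them 3 were called lower and 4 higher in CD90pos cells (limma). Ndufa4 had the largest decrease of the 288 in both populations, but it was looked at because it fell with IFNg. Its rank is therefore no independent result. A match of letters is a description and shows neither a site in use nor a cause.

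The genes outside the members whose log2 levels followed Ndufa4 most closely over the 8 libraries were Ccl9 (Pearson r 0.978), Enpp1 (0.977), Col4a5 (0.976), Guf1 (0.970) and Mcee (0.968). Their log2 fold changes with IFNg were -2.83, -2.24, -0.97, -0.71 and -1.39 in CD90pos cells. None was called by limma (adjusted p between 0.0540 and 0.147).

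None of the 7 mitochondrially encoded genes was called in any comparison by limma, by edgeR or by DESeq2 without length or GC correction, and with IFNg in CD90pos cells all of them but mt-Nd6 were lower between the A libraries and higher between the B libraries. Averaged over the letters, all 7 lay below 0 in CD90pos cells, between -0.59 and -0.03 on the log2 scale. The direction turned with the correction. With the length trend removed 1 of 7, mt-Nd5, lay below 0 and the median was 0.14, and none was called. With length and GC trends removed and the letter block the median was 0.78, and mt-Nd6 was called higher (1.001, limma adjusted p = 0.0297), where 7.93% of all genes were. mt-Co1, a catalytic subunit of complex IV, was at 257636 and 79394 normalized reads in CD90pos control, 157375 and 123992 in CD90pos IFNg, 131204 and 173480 in CD90neg control and 158173 and 117548 in CD90neg IFNg libraries. mt-Cytb was at 197854 and 47888 in CD90pos control and 102320 and 62931 in CD90pos IFNg libraries. The CD90pos control libraries were thus the highest (A) and the lowest (B) of the 8 for both genes, and the IFNg libraries lay between them. The same held for mt-Nd1, mt-Nd2, mt-Nd4 and mt-Nd5. The median of the 7 with IFNg in CD90pos cells was -0.23 on the log2 scale, made of -0.90 between the A and 0.49 between the B libraries. In CD90neg cells it was -0.38, with 0.04 and -0.77. mt-Nd6, the one member transcribed from the light strand, was far lower than the rest, at 304 and 391 normalized reads in CD90pos control, 163 and 319 in CD90pos IFNg, 222 and 668 in CD90neg control and 231 and 291 in CD90neg IFNg libraries. Here the B library was the higher of each pair. Of mt-Nd4 and mt-Co1, 62.2% and 51.1% of 50-base stretches also occur in other annotated genes, so their counts are uncertain.

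**Figure D5:**
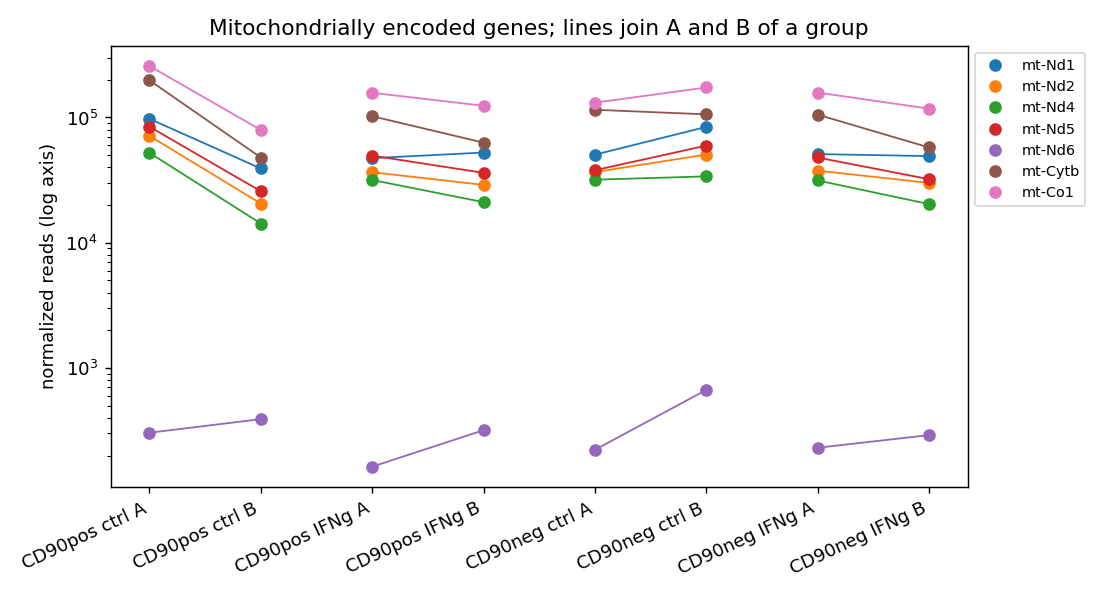
Normalized reads (log axis) of the 7 mitochondrially encoded members in each library; lines join A and B of a group. The largest gap between A and B is in the CD90pos control group for all genes but mt-Nd6.

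Only the 7 mitochondrial members that had a row enter the sums that follow. Their summed normalized reads were 1.81 times those of the nuclear members in CD90pos control A and 0.517 times in CD90pos control B. In the other 6 libraries the ratio was between 1.09 and 1.65. The 2 CD90pos control libraries thus stood apart from each other in mitochondrial RNA and together in nuclear OXPHOS genes. As measured, the median decrease of the nuclear members with IFNg in CD90pos cells was of like size in both letters. The mitochondrial difference and the median of the F1 genes changed sign between the letters. With the length trend removed, the nuclear medians were -0.18 between the A and -0.28 between the B libraries. Those of the nuclear complex I genes were then -0.03 and -0.25.

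In CD90neg cells, 0 of 82 members were called with IFNg by limma, where 0.00771% of all genes were called lower. At an unadjusted p under 0.05 there were 2 members. Of the members 0 were called by edgeR (0.00771% of all genes called lower), by DESeq2 (0.239%) and with the letter block (0.663%). The median of the nuclear members was -0.15, and 69 of 75 lay below 0, with Ndufa4 (-1.49) and Uqcrh (-0.47) the lowest. With the length trend removed the median was -0.07, and 59 of 75 lay below 0. In 31 nuclear members the IFNg libraries lay below both controls, as in 14.7% of all genes. The difference between the populations was tested as an interaction: 0 members were called by limma and by edgeR and 15, all lower, by DESeq2, where 2.05% of all genes were. At an unadjusted p under 0.05 there were 29 members. For this count and the 2 above, the share of all genes is not given here, so no excess in the members is read from them. The median interaction of the nuclear members was -0.62, or -0.13 with the length trend removed. A smaller effect in CD90neg cells is therefore not shown by limma. DESeq2 gave an adjusted p for the interaction for 6428 genes.

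Between the sorted populations without IFNg, nuclear members tended to higher values in CD90pos cells, with a median log2 difference of 0.55 (0.60 between A and 0.56 between B libraries). With the length trend removed the median was 0.11 (0.01 between A and 0.21 between B libraries), and 27 of 75 lay below 0. This comparison shares the CD90pos control libraries with the IFNg effect in CD90pos cells, so the 2 are not independent. By limma and by edgeR 0 members were called, as were 0% of all genes in limma. At an unadjusted p under 0.05 in limma there were 44 members, and the share of all genes at that threshold is not given here. DESeq2 called 32 members higher, where 6.03% of all genes were. With the letter block 42 were called higher and 0 lower, where 6.8% of all genes were called higher, among them Cox7a2 (0.92, adjusted p = 0.0288), Ndufv2 (0.83, adjusted p = 0.0288) and Sdhd (0.79, adjusted p = 0.0288). With the length trend removed in that fit 5 were left, Atp5f1, Ndufs4, Ndufv2, Sdhd and Uqcrc2, where 3.24% of all genes were called higher, and 0 with a GC trend removed as well (0.0232% of all genes). The blocked calls also fell to 0 without any 1 of the 6 libraries that are not CD90pos control, and were 48 without CD90pos control A and 34 without CD90pos control B. For these reduced fits the shares of all genes called are not given here. In 56 nuclear members both CD90pos control libraries lay above both CD90neg control libraries, as in 19.8% of all genes. For the mitochondrial members the median was -0.16, with 0.95 between A and -1.14 between B libraries.

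After IFNg the differences between the populations were small. The median of the nuclear members was -0.04, all 82 members lay between -0.20 and 0.20, and 0 were called by limma, edgeR or DESeq2, with 0 at an unadjusted p under 0.05, where 0%, 0% and 0.00771% of all genes were. In 14 nuclear members both CD90pos IFNg libraries lay below both CD90neg IFNg libraries, as in 6.97% of all genes. Ndufa4 was at 1281 and 2741 normalized reads in CD90pos and 1408 and 3207 in CD90neg IFNg libraries. Within each letter the populations were close, and the letters differed more than the populations.

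Genes that build or serve the complexes were read from lists. Of the 3 subunit genes that the name rule misses, the complex I acyl carrier protein Ndufab1 fell (-0.99, SE 0.19, limma adjusted p = 0.0476), while Cyc1 and Cycs were not called. Its call was lost with the length trend removed (-1.06, adjusted p = 0.0523). Of 16 complex I assembly genes 2 were lower, Ndufaf2 (-0.99) and Ndufaf4 (-0.96), and of these Ndufaf4 was called with the length trend removed. Of 20 complex IV assembly genes measured 1 was lower, Coa6 (-1.26), which helps deliver copper, and its call was lost with the length trend removed (-0.70, adjusted p = 0.153). Of 5 complex V assembly genes measured 2 were lower, Tmem242 (-0.92) and Tmem70. Tmem70, which helps assemble the c-ring, was at 5412 and 5669 normalized reads in CD90pos control and 1882 and 1980 in CD90pos IFNg libraries. It fell by 1.52 on the log2 scale (SE 0.14, limma adjusted p = 0.0160) and was called with the length trend removed (-1.35, adjusted p = 0.0189), while Tmem242 was not (-0.48, adjusted p = 0.279). None of the 4 complex II and 6 complex III assembly genes was called by limma, with medians of -0.74 and -0.54. With the letter block, 13.6% of all genes were called lower. The assembly genes called lower were 7 of 16 for complex I, 3 of 4 for II, 2 of 6 for III, 8 of 20 for IV and 3 of 5 for V. With the length trend removed as well they were 3, 2, 0, 4 and 2, where 10.9% of all genes were.

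Of 22 measured genes for replication, transcription and RNA handling in mitochondria, 1 was lower, Fastkd2 (-0.92), which was also called with the length trend removed, and the median was -0.22. Tfam, the transcription and packaging factor of mitochondrial DNA, had -0.51 (limma adjusted p = 0.0901). Of 8 measured nuclear regulators of mitochondrial biogenesis, 1 was higher, and the median was -0.06. The gene was Pprc1, a coactivator related to PGC-1, at 2786 and 2348 normalized reads in CD90pos control and 4576 and 4768 in CD90pos IFNg libraries (log2 fold change 0.87, SE 0.13, limma adjusted p = 0.0325), and it was also called with the length trend removed. The regulators Nrf1 (0.14) and Esrra (-0.16) were not called. Of 21 citric acid cycle genes Fh1, which encodes fumarase, (-0.73) and Dld, a shared subunit of the 2-oxoacid dehydrogenases, (-0.63) were lower, and both were also called with the length trend removed (adjusted p = 0.0426 and 0.0487). Of 18 import genes Tomm22 was lower (-0.70), and its call was lost with the length trend removed (adjusted p = 0.110). Of 10 measured supercomplex and cristae genes 0 were called by limma. With the letter block, where 13.6% of all genes were called lower, 10 of 18 import and 4 of 10 supercomplex and cristae genes were. So were 5 of 22 genes of mitochondrial DNA expression, 5 of 21 citric acid cycle genes and 0 of 8 regulators. With the length trend removed as well, the counts in the same order were 7, 1, 4, 3 and 0, where 10.9% of all genes were called lower.

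Of the 75 nuclear members 62 had an entry in the RefSeq promoter table, and 250 bases before the start were searched on both strands. The NRF1 motif was found in 13 of 62 members (21%) and in 9.18% of 9920 genes in the table with a promoter. CCGGAAG was found in 12 members (19.4%) and in 15.6% of genes. A motif of interferon regulatory factors, TTTC and TTTC with any 2 bases between, was found in 2 members (3.23%) and in 3.2% of genes. The YY1 motif (AAGATG followed by GCG) and the motif of oestrogen-related receptors (TCA followed by AGGTCA) were found in 1 member each, the latter in Atp5g3, and in 1.41% and 0.302% of genes. With IFNg in CD90pos cells, the median log2 fold change of the 13 members with the NRF1 motif was -0.78, and the 49 without it also had -0.78. The 12 with CCGGAAG had -0.89 and the 50 without had -0.68. Sdhd and Sdha both held the NRF1 motif, and 1 fell while the other was not called. That of Sdhd lies in an annotated exon of Timm8b, its neighbour on the opposite strand, and is not shown. Timm8b, a chaperone gene of mitochondrial import that was added here after its values were seen, had -1.33 (SE 0.27, limma adjusted p = 0.0540).

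Counting could blur some members. The submitters' processing notes name HTSeq without its setting for strand, and exons of 24 members overlap exons of another gene on the opposite strand and those of 7 on the same strand. Of the nuclear members 45 share at least 1 stretch of 50 bases with another annotated gene, processed pseudogenes among them. For the 30 nuclear members that share none, the median log2 fold change with IFNg in CD90pos cells was -0.67, with 9 calls, and the 45 others had -0.80 and 15 calls.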

How the data were processed

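Values per gene in the authors' deposited table are read counts divided by 1 factor per library, a signal scale. The submitters' processing notes list STAR and HTSeq, without versions, and as builds GRCm38 and mm10. Each column was whole multiples of 1 step, and dividing by it gave whole reads for 100% of values within a tolerance of 0.001. A floor of 3 reads was between 2.55 and 3.37 normalized reads, and covers counting error only, since PCR copies were not marked by molecular identifiers. No source used here gives the filter behind the table. The lowest maximum of any gene was 43.4 normalized reads.

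Differences of log2(normalized reads + 1) were tested with limma 3.58.1 (R 4.3.3), 1 mean per group, all 8 libraries and a variance trend, two-sided with Benjamini-Hochberg adjustment over the 12962 genes that reached 10 normalized reads in 2 libraries or more. All 82 members passed that filter. Residual degrees of freedom were 4 (2.06 prior). edgeR 4.0.16 and DESeq2 1.42.0 were run on recovered reads as alternatives. Only the limma fit without the letter block and the removal of the length trend were tested on simulated data, which held no difference between letters.

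A second fit used the letter as a block (3 residual and 3.77 prior degrees of freedom). The meaning of the letters is not in the labels. Differences between A and B correlated between groups with coefficients from 0.779 to 0.920 over 6 pairs of groups, and the first principal component (51.5% of variance) separated the letters, so the letters were taken to pair the libraries. Blocked values stand beside results they change.

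Transcript lengths are those of the principal GENCODE vM21 transcript, and the length trend was a lowess curve (span 0.3) per library over 12947 genes. Symbols were matched by gene ID, and coordinates of GRCm38 come from GENCODE vM21. Named genes are all mitochondrial members, all called members, extremes of level and fold change per complex, paralog sets, called genes of the lists, and the 5 genes most like Ndufa4; others are named where a group is described. The members and lists were chosen with earlier results of these data known. Some results on single items are not reported here.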

Additional observations from a re-analysis of the deposited data

How the results depend on the processing

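The 24 members called lower with IFNg in CD90pos cells became 52 with the replicate block, 48 in DESeq2, 50 in edgeR with the block, 3 with the length trend removed and 8 with lengths of merged exons, and 0 to 3 without 1 library in turn (21 to 61, with 49 and 54 between, with the replicate block). Median centring (26), quantile normalization (30), pseudocounts of 0.5 and 5, filters (24 to 27), size factors without the members and edgeR (20) stayed within 1.5 times. Within the blocked fits, 52 became 20 with the length trend removed and 25 with length and GC trends removed (17 of the 25 among the first 24, and mt-Nd6 higher). In CD90neg cells 1 was called without both CD90pos control libraries with the replicate block, and 0 or 1 without 1 library. Between control populations, 0 became 42 with the replicate block, in limma and edgeR alike, 5 with the length trend removed as well and 32 in DESeq2, and 0 to 48 (34 without CD90pos control B) without 1 library with the block. The interaction became 15 in DESeq2. Of the 24, Uqcrb alone changed sign, to 0.12 (adjusted p = 0.406) with length and GC trends removed and the block. The mitochondrial median for IFNg in CD90pos cells, -0.23, ran from -0.996 to 0.72 without 1 library and to 0.78 with length and GC trends removed and the block. For the fits without 1 library, the shares of all genes called are not given here. The causes of these changes were not tested. Each group held 2 libraries, and whether the number of libraries or the read depth limits precision was not tested. Merged-exon lengths, edgeR with the block, size factors without members and the fit without both CD90pos control libraries were chosen after seeing the data.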
